A study of Mus musculus with 16 samples.

Results

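The 45 genes described here mark DNA replication and cell division, 22 of them S phase and 23 G2 phase and mitosis (G2/M). They were taken by name from the 29453 genes of the count matrix. No measured value enters that rule, but the list was drawn up with earlier results of these data known, and the S and G2/M genes were kept apart throughout. All 45 were found and all 45 passed the filter on low counts in the test of genotype. The cells came from chimeric mouse embryos, made by injecting Stat3 null embryonic stem cells (ESCs) with a tdTomato reporter into wild-type (WT) CD1 host blastocysts. Exons 20–22 of Stat3 are replaced by a neomycin resistance cassette in the null allele, and the ESCs were derived from mice backcrossed to CD1. Collection was on embryonic days 7.5, 8.5 or 9.5 (E7.5 to E9.5), after which the dissociated cells were parted by flow cytometry on tdTomato, null cells being positive, so that both genotypes had developed in the same embryos and without any other treatment. Droplet single-cell RNA sequencing (10x 3′ v3) yielded 2 libraries of each genotype on the first day, 2 of each on the next and 4 of each on the last. The labels give about 10 pooled embryos a tube at E7.5, about 4 at E8.5 and 1 at E9.5, and by the study's methods there were fewer E9.5 embryos than E9.5 libraries of a genotype. Libraries of that day therefore share embryos, which ones is not given, so that n counts libraries, and p-values and SDs measure the spread between these libraries and not between embryos. The study classed its E7.5 embryos by size, as large or small, when they were pooled. Libraries of a genotype at E7.5 may therefore differ in embryo size, and which library holds which is not given.

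A dividing cell licenses its replication origins in G1 by loading the MCM helicase, fires them in S phase once cyclin E and CDK2 and then E2F-driven replication enzymes are present, and then builds the spindle and kinetochores that part the chromosomes. S phase genes are switched on by E2F factors late in G1, while genes of G2 and mitosis are repressed by the DREAM complex and activated later by B-Myb and FoxM1, mostly through a CHR element near the start site. Embryos of these stages divide very fast, while newly formed neurons leave the cycle.

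The 37841 cells analysed carried 360 to 4327 cells and 20682659 to 138613245 unique molecular identifiers (UMIs) per library, in 87 cell types assigned by the authors. Stat3 reached 6.14 to 9.31 CPM (the usual scaling of counts by a library's total UMIs) in the 8 WT libraries and 1.16 to 2.53 CPM in the 8 null libraries, with no overlap at any stage. These are 3′ counts of the whole gene and do not by themselves show which exons are missing. tdTomato reached 66.1 to 237 CPM in null libraries. E8.5 null B stood apart, with 318 of 1146 cells (27.7%) lacking a tdTomato UMI, followed by E8.5 null A with 10.2%, against 1.68% to 3.90% in the other 6 null libraries. E9.5 WT C and WT D share 292 cell barcodes among the analysed cells, 15.3% of WT C, against at most 0.556% of the smaller library for any other pair. Of the cells with shared names, however, 3.42% had the same cell type where 3.30% would follow from the shares of types. Many of the tests, genotype differences and type levels at E9.5, but not all, are also given without these libraries. Letters only name the libraries of a group. In the sums matched by cell type that the tests used, the 8 erythroid markers together gave 225 to 897 CPM in E9.5 WT libraries and 8.15 to 52.6 CPM in null libraries, with 6 of 8 markers apart and none at 0 in either genotype, and the 6 visceral and extra-embryonic endoderm markers gave 22.4 to 44.6 CPM in E7.5 WT libraries and 5.58 to 9.05 CPM in null libraries, with 6 of 6 apart and Apob at 0 in the null. The 6 mesenchyme markers gave 409 to 463 CPM in E7.5 WT libraries and 367 to 372 CPM in null libraries, with 4 apart and lower, 1 apart and higher and none at 0. The 5 neural crest markers gave 85.7 to 86.9 CPM in E8.5 WT libraries and 71.1 to 82.1 CPM in null libraries, with 2 of 5 apart and none at 0, and the 6 extra-embryonic ectoderm markers 40.7 to 41.5 CPM and 34.0 to 39.97 CPM, with 1 apart and lower, 1 apart and higher and none at 0. At E7.5 the extra-embryonic ectoderm markers gave 114 to 151 CPM in WT and 118 to 122 CPM in null libraries, with 2 apart and lower, and the 6 neural markers 78.5 to 108 CPM and 85.4 to 110.4 CPM, with 2 apart and higher. In the other lists and stages at most 1 marker of a list was apart. By edgeR within stages 2 markers were called for genotype, both lower in null at E7.5, Rhox5 of the extra-embryonic ectoderm list (log2 fold change -3.50, adjusted p 0.0435) and Apoa1 of the endoderm list (-2.77, adjusted p 0.0311), and over 3 stages none. The part of these cell types in the results below was not tested, and the values without erythroid path cells come from another draw of cells.

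Over single cells the 2 groups of genes formed opposed sets. Every cell was thinned to 10000 UMIs so that depth could not set a gene's count, and a median cell then held 26 S and 34 G2/M member UMIs. The summed S and summed G2/M counts correlated negatively in each of the 16 libraries, with a median Pearson r of -0.25 and a range of -0.42 to -0.08. All 22 S genes correlated more with the sum of the other S genes than with the G2/M sum, and all 23 G2/M genes did the reverse. These correlations describe cells that share a library and a mixture of cell types, and carry no p.

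Among S genes Rrm2, the regulated subunit of ribonucleotide reductase, followed its set most closely (median r 0.47 over 16 libraries). The helicase subunits Mcm3 (0.39) and Mcm7 (0.38), the histone mRNA-binding protein gene Slbp (0.37) and the uracil glycosylase gene Ung (0.36) came next. Ung also stood furthest from the G2/M sum, at -0.27. Tyms, which makes thymidylate (0.14), Rfc2, a clamp loader subunit (0.15), and Rrm1, the other reductase subunit (0.15), were the S genes least tied to the set. In the G2/M set the kinetochore protein gene Cenpf led (0.74), followed by Ube2c, the ubiquitin-conjugating enzyme of the anaphase-promoting complex (0.70), the spindle protein gene Nusap1 (0.65), Cenpe, a kinetochore motor (0.59), and Top2a, which decatenates sister chromosomes (0.59). Ccnb2 (0.19) and Ccna2 (0.25) were the least tied. Ccna2 encodes cyclin A, which acts in both S and G2, and was the G2/M gene with a positive r against the S sum (0.03). Of the S genes, Rrm1 (0.04) and Tyms (0.03) had a positive r against the G2/M sum.

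**Figure D1:**
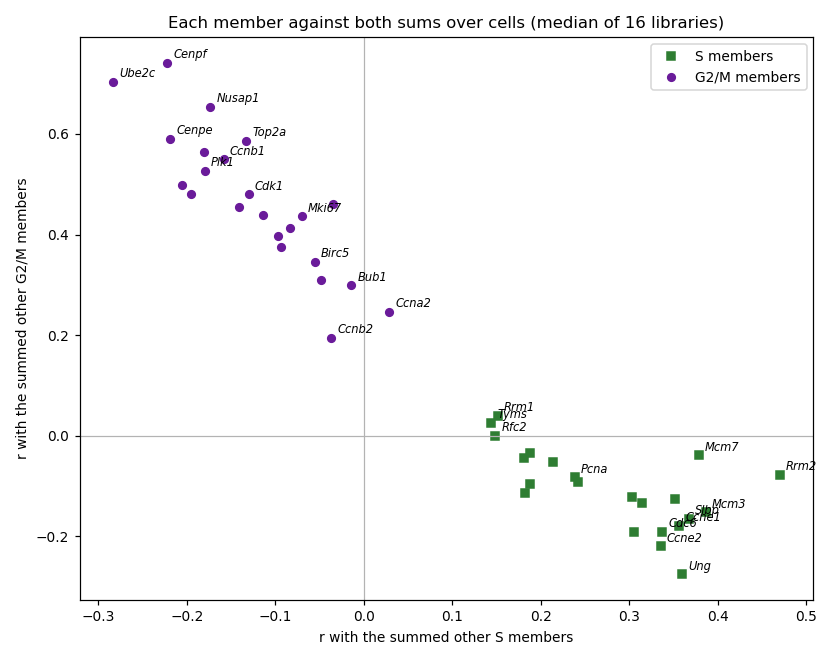
Each of the 45 genes by its Pearson r over cells with the sum of the other S genes (horizontal axis) and of the other G2/M genes (vertical axis), as the median of 16 libraries in cells thinned to 10000 UMIs. The S genes (squares) lie to the right at r from 0.14 to 0.47 and the G2/M genes (circles) above at r from 0.19 to 0.74, with no gene in the other group's region.

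The promoters of the members were read to see which sequence features separate 2 sets that vary apart over cells. RefSeq's promoter table (GRCm38.p6, 250 bases before to 50 after a gene's start) held 38 of the 45 genes and 27025 symbols in all. Aurkb, Ccna2, Ccne2, Gins2, Mcm4, Rfc2 and Tpx2 had no entry. E2F-type sites were searched on both strands as TTTCCCGC, TTTCGCGC, TTTGGCGC or TTTGCCGC. The CHR was searched as TTTGAA on both strands. A related element was searched as TTTAAA, a palindrome, and the CCAAT box by its name's letters on both strands. No set of letters contains another. E2F-type letters were in 6 of 18 S promoters (33.3%), in 1 of 20 G2/M promoters (5.0%) and in 2.60% of all promoters of the table. The 6 S genes were Mcm3, Mcm5, Mcm6, Mcm7, Cdc6 and Cdt1, all of them in the licensing and helicase group, and the G2/M gene was Cdk1. CHR letters were in 3 of 18 S promoters (16.7%), 15 of 20 G2/M promoters (75.0%) and 20.2% of all promoters. TTTAAA was in 3 of 18 S promoters (16.7%), 7 of 20 G2/M promoters (35.0%) and 14.9% of all promoters. CCAAT letters were in 10 of 18 S promoters (55.6%), 18 of 20 G2/M promoters (90.0%) and 41.1% of all promoters. CHR and CCAAT letters stood together in 15 of 20 G2/M promoters (75.0%), in 2 of 18 S promoters (11.1%) and in 7.97% of all promoters. A match is a description of letters, and no binding was measured in these cells.

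Promoters of 5 genes are printed 5′ to 3′ on the gene's strand, chosen after the motifs were seen, those of Rrm2, Cenpe and Cenpf because they were called for genotype, that of Cdk1 because it was called between stages and that of Mcm6 as a licensing gene with E2F-type letters. E2F-type, CHR, TTTAAA and CCAAT letters are in capitals, on either strand, so that CCAAT on the other strand reads ATTGG. The windows are Rrm2 at chr12:24708004-24708303, plus strand, Mcm6 at chr1:128359656-128359955, minus strand, Cenpe at chr3:135212313-135212612, plus strand, Cenpf at chr1:189688037-189688336, minus strand and Cdk1 at chr10:69352863-69353162, minus strand.
Rrm2: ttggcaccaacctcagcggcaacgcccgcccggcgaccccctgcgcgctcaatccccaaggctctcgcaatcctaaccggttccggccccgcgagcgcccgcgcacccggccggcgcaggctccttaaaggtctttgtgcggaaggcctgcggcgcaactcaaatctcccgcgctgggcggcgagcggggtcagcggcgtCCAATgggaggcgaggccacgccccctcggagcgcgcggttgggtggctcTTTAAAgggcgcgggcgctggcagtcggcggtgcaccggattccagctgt
Mcm6: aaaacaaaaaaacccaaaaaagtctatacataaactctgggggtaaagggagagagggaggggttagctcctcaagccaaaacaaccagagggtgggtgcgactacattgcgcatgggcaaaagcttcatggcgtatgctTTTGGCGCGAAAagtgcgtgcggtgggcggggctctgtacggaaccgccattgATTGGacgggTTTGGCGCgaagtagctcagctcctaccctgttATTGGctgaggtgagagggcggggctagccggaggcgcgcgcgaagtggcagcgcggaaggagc
Cenpe: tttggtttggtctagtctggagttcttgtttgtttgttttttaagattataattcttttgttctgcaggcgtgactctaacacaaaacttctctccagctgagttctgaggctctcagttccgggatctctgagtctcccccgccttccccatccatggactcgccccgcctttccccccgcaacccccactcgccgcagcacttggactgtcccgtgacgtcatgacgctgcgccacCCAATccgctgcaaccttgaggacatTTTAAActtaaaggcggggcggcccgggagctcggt
Cenpf: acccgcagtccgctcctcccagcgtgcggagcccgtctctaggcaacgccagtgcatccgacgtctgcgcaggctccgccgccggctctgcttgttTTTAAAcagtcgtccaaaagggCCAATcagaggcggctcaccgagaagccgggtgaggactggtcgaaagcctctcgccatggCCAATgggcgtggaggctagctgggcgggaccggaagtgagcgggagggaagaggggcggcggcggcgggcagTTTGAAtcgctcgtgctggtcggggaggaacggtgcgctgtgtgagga
Cdk1: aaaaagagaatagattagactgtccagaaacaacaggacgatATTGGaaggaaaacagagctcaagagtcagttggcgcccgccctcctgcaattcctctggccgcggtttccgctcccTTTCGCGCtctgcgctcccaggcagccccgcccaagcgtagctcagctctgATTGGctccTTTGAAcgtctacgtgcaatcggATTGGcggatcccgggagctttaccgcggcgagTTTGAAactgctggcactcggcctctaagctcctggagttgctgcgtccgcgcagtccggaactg
Rrm2 held TTTAAA and CCAAT and no E2F-type letters in this window, Mcm6 held E2F-type letters and CCAAT, Cenpe TTTAAA with CCAAT, Cenpf and Cdk1 a CHR just after or before the start with several CCAAT, and Cdk1 E2F-type letters besides.

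The first question was whether Stat3 null cells differed from WT cells of the same embryos in these genes. All null cells came from injected ESCs with the reporter and all WT cells from the host. Genotype therefore cannot be told apart from that origin. Summed over all cells of a library, the 22 S genes gave 2724 and 2706 CPM in the E7.5 WT libraries and 2848 and 2785 CPM in the null libraries, so that both null libraries lay higher (mean 2816 ± 44.6 against 2715 ± 12.9, SD, n = 2). At E8.5 they gave 2344 and 2473 CPM in WT and 2386 and 2460.1 CPM in null libraries, and at E9.5 2764, 2837, 2796 and 2661 against 2812, 2761, 2792 and 2918 CPM, with overlap at both stages. The 23 G2/M genes gave 4267 and 4204 against 4308 and 3999 CPM at E7.5, 3839.6 and 4101 against 3957 and 3992 CPM at E8.5, and 4154, 4205, 4445 and 4153 against 4223, 4308, 4166 and 3957 CPM at E9.5, with overlap at each stage. In sums over cells matched by type the S genes gave 2746 and 2674 CPM in E7.5 WT libraries against 2814 and 2766 CPM in null libraries, which are apart, and null was higher on average by 79.5, 79.2 and 58.2 CPM at the 3 stages, with overlap at E8.5 and E9.5 and 42.2 CPM at E9.5 without WT C and D. In these sums the G2/M genes gave 4296 and 4365 CPM in E7.5 WT libraries against 4223 and 4142 CPM in null libraries, which are apart. They overlapped at E8.5 and at E9.5, where the matched difference, null minus WT, was -181 CPM, against -75.9 CPM over all cells. Without E9.5 WT C and D these differences were -71.3 and -16.2 CPM, and that of the S sum over all cells was 20.1 CPM in place of 55.97.

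Cells were also counted by phase. A cell was called S high with 30 or more S member UMIs of 10000, G2/M high with 40 or more G2/M member UMIs and G2/M low with fewer than 10. S high cells made up 39.0% ± 1.95 of WT and 42.9% ± 2.15 of null cells at E7.5 (SD, n = 2), 30.1% ± 2.85 and 30.2% ± 0.960 at E8.5 (n = 2), and 40.5% ± 3.03 and 42.0% ± 2.78 at E9.5 (n = 4). Both null libraries lay above both WT libraries at E7.5, and the groups overlapped at E8.5 and E9.5. With a minimum of 40 S member UMIs the E7.5 groups overlapped too, at 9.53% to 11.1% in WT and 10.6% to 12.6% in null libraries. All these shares are over all cells of a library, not matched by type. G2/M high cells made up 45.3% ± 0.823 and 44.1% ± 6.62 of WT and null cells at E7.5, with E8.5 giving 38.7% ± 4.99 against 38.4% ± 0.148 and E9.5 giving 41.0% ± 2.47 against 40.1% ± 1.66, with overlap at each stage. G2/M low cells were few at E7.5 (2.07% in WT, 1.22% in null) and E8.5 (3.50% and 4.88%) and reached 11.1% and 11.2% at E9.5. Both null libraries were lower at E7.5 (1.11% to 1.34% against 1.51% to 2.63%) and higher at E8.5 (4.44% to 5.32% against 2.75% to 4.25%), with overlap at E9.5. Without E9.5 WT C and D the null minus WT difference at E9.5 was -0.29 points for S high cells in place of 1.57, 1.14 for G2/M high cells in place of -0.90 and -1.38 for G2/M low cells in place of 0.11, with overlap in each. Without thinning, the same minimum was passed by most cells, for S by 95.7% of WT and 99.0% of null cells at E7.5, then 88.7% against 91.9% at E8.5 and 87.9% against 90.7% at E9.5. For G2/M the unthinned shares were 95.1% and 97.9%, 82.4% and 87.1%, and 81.5% and 84.5%. G2/M high cells carried more UMIs (median 33673) than S high cells that were not G2/M high (29743.5), cells of no class (28433.5) and G2/M low cells (21561), and carried more than G2/M low cells in 16 of 16 libraries. Thinning removes the effect of that depth on a cell's count and not on which cells passed the authors' filter.

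Gene by gene, each library was then summed over the same number of cells of each type within a stage, and null was compared with WT over the 3 stages with edgeR's quasi-likelihood test. The sums held 7 types and 201 cells a library at E7.5, 20 types and 716 cells at E8.5, and 20 types and 907 cells at E9.5. Types without more than 15 cells in every library of a stage are not covered by this test. Of 13437 genes tested, 408 (3.04%) passed an adjusted p of 0.05, and 3 of the 45 members did. Rrm2 rose in null cells, where 1.52% of all genes did, and Cenpe and Cenpf fell, where 1.52% of all genes did. The median log2 fold change of null over WT was 0.04 over the S genes, -0.01 over the G2/M genes and -0.00 over all genes, with 17 of 22 S genes and 10 of 23 G2/M genes above 0 against 48.3% of all genes. The 95% interval of the effect lay within 1.2-fold in either direction for 19 of 22 S genes and 23 of 23 G2/M genes. None of the 3 called estimates reached 1.2-fold.

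**Figure D2:**
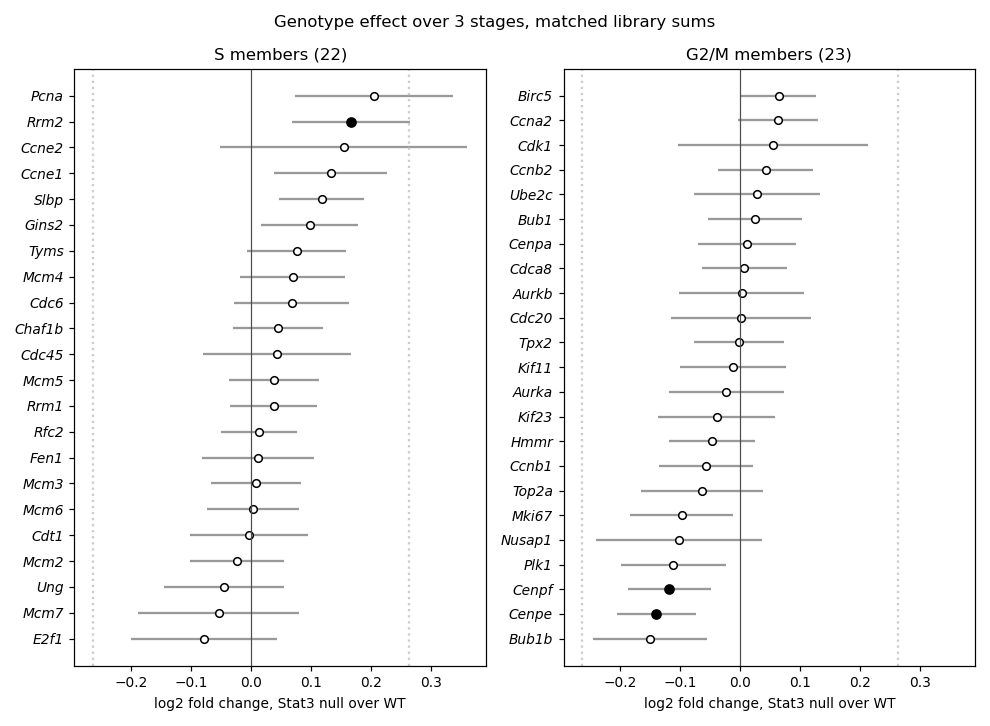
log2 fold change of Stat3 null over WT for 22 S and 23 G2/M genes, from library sums matched by cell type over 16 libraries and 3 stages (points, edgeR estimates, bars, 95% intervals from their standard errors, filled points, adjusted p under 0.05, dotted lines, 1.2-fold). Rrm2 at 0.17, Cenpe at -0.14 and Cenpf at -0.12 are the filled points, and Rrm2 is no longer called when libraries are scaled by total UMIs, with no change of direction for the 3.

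Rrm2 (chr12:24708241-24714146, plus strand, GRCm38) stood at 241 and 233 CPM in the E7.5 WT libraries against 249 and 295 in the null, 245 and 251 against 254 and 293 at E8.5, and 318, 336, 346 and 312 against 324, 360.0, 388 and 365 at E9.5. Both null libraries were higher than both WT libraries at E7.5 and E8.5, and the groups overlapped at E9.5. The log2 fold change was 0.17 (SE 0.05, 95% interval 0.07 to 0.26, adjusted p 0.0485).

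Cenpe (chr3:135212537-135273611, plus strand) stood at 149 and 159.8 CPM in the E7.5 WT libraries against 139 and 132 in the null, 134 and 138 against 127 and 124 at E8.5, and 159, 152, 167 and 156 against 144, 147, 139 and 138 at E9.5. Null and WT did not overlap at any of the 3 stages, with null always lower, and Cenpe was the one member of which this was so. The log2 fold change was -0.14 (SE 0.03, 95% interval -0.21 to -0.07, adjusted p 0.0117). Cenpf (chr1:189640606-189688086, minus strand) stood at 452 and 465 CPM in the E7.5 WT libraries against 418 and 385 in the null, 386 and 390.2 against 362 and 349 at E8.5, and 442, 414, 452 and 406 against 398, 413, 407 and 369 at E9.5. The groups were apart at E7.5 and E8.5 and overlapped at E9.5, and the log2 fold change was -0.12 (SE 0.03, adjusted p 0.0466).

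These 3 calls depended on which cells and libraries entered. Another random draw of the same number of cells gave 0 member calls, as did all cells without matching and leaving out null cells that lacked a tdTomato UMI. A draw without erythroid path cells called none of the 3, with Rrm2 at 0.17 (adjusted p 0.0688), Cenpe at -0.12 (adjusted p 0.0718) and Cenpf at -0.10 (adjusted p 0.151), and called Mki67 (-0.14, adjusted p 0.0475). That draw also took the other cells anew, and at E9.5 the matched types already held no erythroid path type. The effect of leaving out those cells alone was therefore not tested. Leaving out E9.5 WT C and D gave 0 member calls, with Rrm2 at 0.17 (adjusted p 0.0903), Cenpe at -0.12 (adjusted p 0.0597) and Cenpf at -0.12 (adjusted p 0.0848) by edgeR. Without E8.5 null B, the library with the most cells lacking tdTomato, Cenpe stayed called (-0.14, adjusted p 0.0179) and Rrm2 (0.15, adjusted p 0.0932) and Cenpf (-0.11, adjusted p 0.085) did not. Omitting 1 library at a time, Cenpe was called in 16 of 16 fits, Rrm2 in 4 (those without E7.5 null A, E8.5 null A, E9.5 null A or E9.5 WT C) and Cenpf in 2 (those without E9.5 WT D or E9.5 null B). Of 9 other settings Cenpe was called in 4, Rrm2 in 2 and Cenpf in 2.

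**Figure D3:**
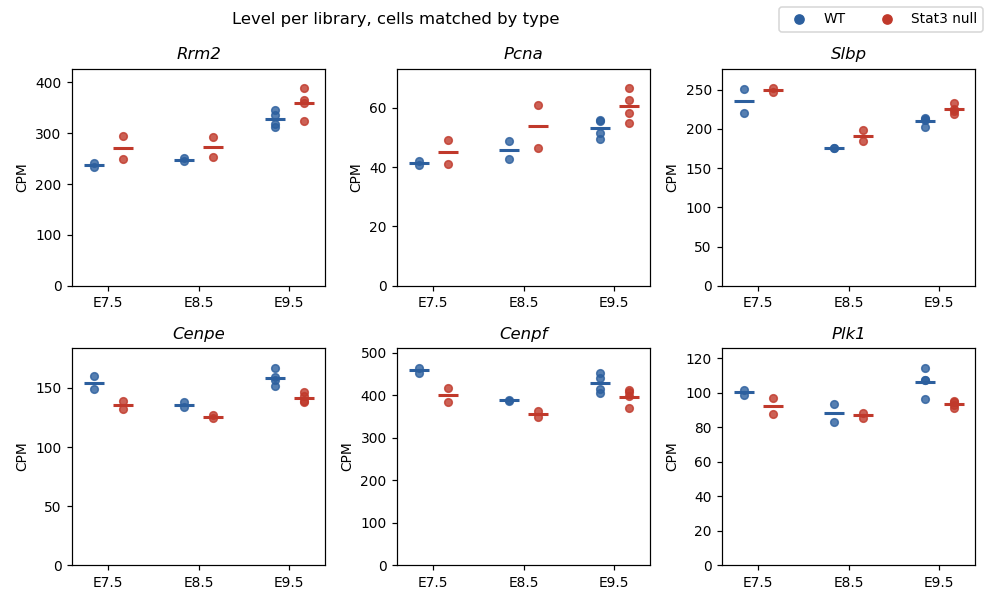
Level in CPM (vertical axes, from 0) of 6 members in each library, from cells matched by type, by stage and genotype (points, libraries, bars, group means). Cenpe lies lower in every null library than in any WT library of its stage and Cenpf does so at E7.5 and E8.5 only, while Rrm2 lies higher in null at E7.5 and E8.5 and Slbp at E8.5 and E9.5.

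None of the 5 members shown for licensing and the helicase passed the test. Mcm2, a helicase subunit, stood at 117 and 107 CPM in the E7.5 WT libraries against 102 and 116 in the null, 77.7 and 84.1 against 75.2 and 81.5 at E8.5, and 101, 102, 101 and 97.9 against 96.4, 99.1, 93.9 and 102 at E9.5. Mcm5, another, stood at 181 and 173 CPM in the E7.5 WT libraries against 185 and 175 in the null, 125 and 146 against 139.7 and 148 at E8.5, and 155, 165, 159.5 and 153 against 155, 149.6, 155 and 167 at E9.5. Mcm6, a further subunit whose promoter is printed with its E2F-type letters, stood at 182 and 168 CPM in the E7.5 WT libraries against 186 and 162 in the null, 159 and 162 against 164 and 162 at E8.5, and 178, 191, 187 and 174 against 167, 178, 184 and 186 at E9.5. Null and WT overlapped at each stage for Mcm2 and Mcm5, and Mcm6 was apart, higher in null, at E8.5 alone. Cdc6, which loads the helicase at origins, stood at 57.1 and 52.5 CPM in the E7.5 WT libraries against 63.8 and 61.7 in the null, 53.9 and 54.3 against 51.0 and 55.3 at E8.5, and 48.9, 51.1, 49.2 and 47.2 against 47.7, 45.9, 51.7 and 55.5 at E9.5. Cdt1, its partner in loading, stood at 54.8 and 57.7 CPM in the E7.5 WT libraries against 51.9 and 57.0 in the null, 54.3 and 58.2 against 51.4 and 61.7 at E8.5, and 55.5, 56.7, 58.7 and 51.9 against 55.1, 53.4, 50.1 and 60.5 at E9.5. Cdc6 was apart at E7.5 only, and the log2 fold changes of these 5 genes ran from -0.02 (Mcm2) to 0.07 (Cdc6), with none called.

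Of the members shown for DNA synthesis beside Rrm2, neither Pcna nor Tyms passed. Pcna, the sliding clamp, stood at 41.9 and 40.6 CPM in the E7.5 WT libraries against 41.0 and 49.0 in the null, 48.9 and 42.8 against 46.6 and 61.0 at E8.5, and 49.6, 55.7, 55.6 and 51.3 against 54.9, 58.3, 66.5 and 62.7 at E9.5. Its log2 fold change of 0.20 (95% interval 0.07 to 0.34) was the highest of the members and missed the threshold (adjusted p 0.0747), and the matrix also holds a processed pseudogene of Pcna, Pcna-ps2, so that the share of reads between the 2 is uncertain. Tyms stood at 120.1 and 109 CPM in the E7.5 WT libraries against 117 and 120.3 in the null, 152 and 147 against 154 and 166 at E8.5, and 158, 157, 173 and 167 against 160.1, 158, 182 and 175 at E9.5. It was apart at E8.5, with a log2 fold change of 0.08 (adjusted p 0.334). Processed pseudogenes of Tyms, Ccnb1 and Ccnb2 are annotated and are not among the rows of the matrix.

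S phase entry genes gave 0.13 for Ccne1, 0.15 for Ccne2 and -0.08 for E2f1 on the log2 scale, none called. Ccne1, a cyclin E, stood at 146 and 172 CPM in the E7.5 WT libraries against 152 and 157 in the null, 94.9 and 109 against 109.9 and 125 at E8.5, and 128, 130.2, 123 and 129 against 144, 139, 134 and 147 at E9.5. All null libraries were higher at E8.5 and at E9.5. Ccne2, the other cyclin E, stood at 41.1 and 44.6 CPM in the E7.5 WT libraries against 63.2 and 45.8 in the null, 40.5 and 53.3 against 43.9 and 44.6 at E8.5, and 54.6, 44.8, 49.0 and 58.0 against 70.0, 45.6, 58.2 and 57.6 at E9.5, and was apart at E7.5 only. E2f1, a transcription factor of the S phase programme, stood at 28.2 and 29.6 CPM in the E7.5 WT libraries against 25.0 and 21.3 in the null, 23.9 and 23.2 against 23.2 and 21.0 at E8.5, and 40.9, 37.8, 36.5 and 34.2 against 42.6, 34.4, 36.5 and 33.9 at E9.5. It was lower in both null libraries at E7.5 and E8.5 and overlapped at E9.5. Slbp, which binds histone mRNA, stood at 220.4 and 250.4 CPM in the E7.5 WT libraries against 247 and 252 in the null, 176 and 176 against 185 and 198 at E8.5, and 212, 214, 213 and 202 against 226, 233, 223 and 219 at E9.5. It was higher in every null library at E8.5 and E9.5, and its log2 fold change of 0.12 (95% interval 0.05 to 0.19) came just short of the threshold (adjusted p 0.0532). Ung, which removes uracil from DNA, stood at 77.6 and 69.2 CPM in the E7.5 WT libraries against 70.7 and 75.9 in the null, 47.6 and 58.0 against 48.4 and 52.6 at E8.5, and 56.8, 63.7, 57.0 and 52.6 against 53.7, 54.3, 52.0 and 56.3 at E9.5, with overlap at each stage.

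None of the 3 members shown for the mitotic kinase and its cyclins passed the test. Cdk1, the mitotic kinase, stood at 157 and 139.6 CPM in the E7.5 WT libraries against 119 and 174 in the null, 146 and 176 against 165 and 195 at E8.5, and 146, 142, 164 and 144 against 135, 158, 157 and 146 at E9.5. Ccna2, cyclin A, stood at 137 and 130.1 CPM in the E7.5 WT libraries against 142 and 144 in the null, 112 and 119.7 against 122 and 121 at E8.5, and 127, 122, 131 and 129 against 123, 128, 131 and 131 at E9.5. Ccnb1, a cyclin B, stood at 153 and 166 CPM in the E7.5 WT libraries against 145 and 141 in the null, 146 and 157 against 148 and 143 at E8.5, and 149, 138, 167 and 159.9 against 153, 148, 148 and 146 at E9.5. Cdk1 overlapped at each stage, Ccna2 was higher in null at E7.5 and E8.5, and Ccnb1 was lower in null at E7.5. Their log2 fold changes were 0.05, 0.06 and -0.06, with adjusted p of 0.776, 0.317 and 0.476.

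Beside Cenpe and Cenpf, the members shown for the chromosomes and spindle did not pass. Mki67, which coats mitotic chromosomes, stood at 249 and 248 CPM in the E7.5 WT libraries against 222 and 202 in the null, 258 and 261 against 273 and 234 at E8.5, and 268, 271, 293 and 267 against 276, 266, 245 and 240.1 at E9.5. Top2a stood at 541 and 549 CPM in the E7.5 WT libraries against 568 and 471 in the null, 429 and 468 against 479.5 and 398 at E8.5, and 576, 547, 582 and 609 against 612, 515, 526 and 492 at E9.5. Mki67 was apart at E7.5 only and Top2a at no stage. Plk1, a mitotic kinase, stood at 98.6 and 102 CPM in the E7.5 WT libraries against 87.6 and 96.9 in the null, 82.9 and 93.2 against 88.4 and 85.2 at E8.5, and 107, 96.1, 107 and 114 against 92.9, 91.0, 94.6 and 95.4 at E9.5. Every null library was lower at E7.5 and E9.5, and the log2 fold change of -0.11 (95% interval -0.20 to -0.02) missed the threshold (adjusted p 0.149). Bub1b, a spindle checkpoint kinase, was added after its values were seen and showed the lowest estimate of the members, -0.15 (adjusted p 0.0658). It stood at 67.7 and 71.6 CPM in the E7.5 WT libraries against 60.4 and 57.6 in the null, 59.2 and 63.1 against 61.9 and 54.2 at E8.5, and 64.0, 68.9, 69.4 and 69.1 against 63.1, 63.8, 53.3 and 59.4 at E9.5, and null was lower at E7.5 and E9.5.

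Aurkb, the kinase of the chromosomal passenger complex, stood at 75.0 and 65.8 CPM in the E7.5 WT libraries against 71.9 and 80.6 in the null, 69.7 and 78.0 against 75.4 and 72.1 at E8.5, and 79.7, 76.8, 91.3 and 86.7 against 77.7, 79.1, 86.1 and 75.2 at E9.5. Birc5, another subunit of that complex, stood at 345 and 338 CPM in the E7.5 WT libraries against 353 and 361 in the null, 298 and 316 against 313 and 338 at E8.5, and 295, 290.2, 301 and 302 against 294, 311, 299.6 and 302 at E9.5. Cenpa, the centromeric histone, stood at 219.9 and 233 CPM in the E7.5 WT libraries against 212 and 237 in the null, 211 and 219 against 213 and 230.0 at E8.5, and 269, 262, 266 and 251 against 249.8, 282, 247 and 250.3 at E9.5. Aurkb and Cenpa overlapped at each stage, and Birc5 was higher in both null libraries at E7.5. Of the genes of mitotic exit, Cdc20, an activator of the anaphase-promoting complex, stood at 153 and 151 CPM in the E7.5 WT libraries against 142 and 177 in the null, 141 and 169 against 142 and 158 at E8.5, and 143, 133, 161 and 147 against 130.1, 137, 146 and 153 at E9.5, and Ube2c at 335 and 337 CPM in the E7.5 WT libraries against 332 and 367 in the null, 339 and 372 against 337 and 415 at E8.5, and 347, 312, 377 and 328 against 307, 346, 347 and 321 at E9.5. Both overlapped at each stage, with log2 fold changes of 0.00 and 0.03.

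Counted over all members, null and WT libraries lay apart for 5 of 22 S genes at E7.5 (4 higher in null, 1 lower), 11 on the next day (9 and 2) and 2 on the last (2 and 0), and for 10 of 23 G2/M genes at E7.5 (2 higher, 8 lower), 7 on the next (2 and 5) and 3 on the last (0 and 3). Over all genes 33.0% were apart at E7.5, 33.4% at E8.5 and 7.4% at E9.5. By direction the background was 12.3% higher and 20.7% lower at E7.5, 16.2% against 17.2% at E8.5 and 3.1% against 4.29% at E9.5.

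Tested within each stage by edgeR, 0 of 45 members passed at E7.5 (background 0.252% of 13875 genes), 0 at E8.5 (0.346%) and 0 at E9.5 (0.98%). At an unadjusted p under 0.05 there were 8 members (background 7.84%), 4 (6.57%) and 7 (9.09%) in the same order. DESeq2 called 0, 0 and 1 member, Cenpe at E9.5 (adjusted p 0.0316). The difference of the genotype effect between stages was tested as an interaction, and no member was called between E7.5 and E8.5 (background 0.0%) or E8.5 and E9.5 (background 0.0144%), with 1 member (background 4.27%) and 2 members (3.44%) at an unadjusted p under 0.05 and 0 and 0 called by DESeq2.

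Within cell types the same test was run on sums per library and type, in 7 types at E7.5, 20 at E8.5 and 37 at E9.5. The type Erythroid was not among the 37, so that genotype was not tested within it at E9.5. Member calls numbered 0 of 315 at E7.5 (background 0.246%), 0 of 898 at E8.5 (background 0.0921%) and 3 of 1665 at E9.5 (background 0.274%). At an unadjusted p under 0.05 they numbered 15 (background 4.05%), 61 (4.31%) and 153 (6.27%), and DESeq2 called 0, 0 and 3, the last all G2/M genes of 1 type. The share at E9.5 is below that over all genes, so that the calls say nothing of the members as a set. They were Cenpe and Cenpf, lower in null Cranial mesoderm, and Ccne1, higher in null YS mesothelium.

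In Cranial mesoderm Cenpe stood at 121, 149, 140.1 and 125 CPM in the 4 WT libraries and 98.4, 84.0, 99.0 and 92.2 CPM in the 4 null libraries, without overlap (log2 fold change -0.51, SE 0.10, adjusted p 0.00689). Cenpf stood at 291, 299, 273 and 259.8 CPM in WT and 232, 177, 239 and 202 CPM in null libraries, also without overlap (-0.39, SE 0.09, adjusted p 0.0396). Leaving out WT C and D, Cenpe gave -0.51 (adjusted p 0.0855) and Cenpf -0.45 (adjusted p 0.0906). In YS mesothelium Ccne1 stood at 40.6, 50.3 and 64.8 CPM in the 3 WT libraries and 87.6, 85.5 and 104 CPM in the 3 null libraries with more than 15 cells of the type (0.78, SE 0.17, adjusted p 0.0491). Without WT D (WT C had too few cells of the type) Ccne1 gave 1.02 (adjusted p 0.0131). DESeq2 gave Ccne1 an adjusted p of 0.145, and 16 to 144 cells a library stood behind its values. Omitting 1 library at a time, the adjusted p stayed under 0.05 for Cenpe in each fit, rose as high as 0.209 for Cenpf (without null B) and 0.323 for Ccne1 (without WT B).

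Types leaned either way. At E9.5 the S median was above 0 and the G2/M median below in 14 of 37 types, the reverse held in 12, both were above in 4 and both below in 7. In Migratory neural crest 22 of 23 G2/M genes were above 0 (median 0.11) with 8 of 22 S genes, and in Surface ectoderm 19 G2/M genes (0.21) with 1 S gene (-0.27). The share of all genes above 0 in these types is not given, so that such counts are no result about the members as a set. Of 20 types at E8.5 the counts were 6, 6, 5 and 3 in the same order, and of 7 types at E7.5 they were 3, 0, 4 and 0, so that the S median was above 0 in each of the 7.

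Cranial mesoderm is described further because it held 2 of the 3 calls, so what follows is a description. At E9.5, 20 of 22 S genes were above 0 and 22 of 23 G2/M genes below, with medians of 0.14 and -0.22. Their sums were 2710.4, 2627, 2798 and 2746 CPM for S in WT libraries and 3063, 3023, 2833 and 3079 CPM in null libraries. For G2/M they were 3572, 3712, 3791 and 3721 CPM in WT and 3202, 3013, 3407 and 3209 CPM in null libraries, and neither pair overlapped. At E8.5 the signs were the reverse, with 0 of 22 S genes above 0 and 19 of 23 G2/M genes above 0, and Cenpe at 70.4 and 63.6 CPM in WT against 91.6 and 79.6 CPM in null libraries. For neither stage is the share of all genes above 0 in this type given, so that the sign counts are no result about the members as a set. The median UMIs per cell at E9.5 were 29484, 26579, 41428 and 28913 in WT and 29509, 33322, 48475 and 42273 in null libraries, and their part in these values was not tested.

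Across all 37 types at E9.5, which share their libraries, Pcna was higher in null in 32 (median log2 fold change 0.22), Rrm2 in 27 (0.14) and Slbp in 25 (0.06). Plk1 was lower in 31 (-0.18), Bub1b in 30 (-0.11), Cenpe in 29 (-0.06) and Cenpf in 22 (-0.06). Mcm2 was lower in 32 (-0.07). Other S genes were lower in most types as well, Mcm7 in 28 (-0.07) and Ung in 27 (-0.12), while the G2/M genes Birc5 and Ccna2 were higher in 24 each (0.03 and 0.01). Without WT C and D, Pcna was higher in 32 (0.21), Rrm2 in 29 (0.16) and Slbp in 29 (0.06), and Plk1 was lower in 24 (-0.03), Bub1b in 26 (-0.09), Cenpe in 24 (-0.06), Cenpf in 19 (-0.02) and Mcm2 in 27 (-0.07). Mcm7 was then lower in 15 (0.02) and Ung in 27 (-0.14), and Birc5 was higher in 27 (0.05) and Ccna2 in 28 (0.06). Of 20 types at E8.5, Pcna was higher in 12, Rrm2 in 16 and Slbp in 11, while Plk1 was lower in 11, Bub1b in 18, Cenpe in 12, Cenpf in 13 and Mcm2 in 17. Mcm7 was lower in 19 of them and Ung in 11, and Gins2 was higher in 18, Birc5 in 17 and Ccna2 in 12. Of 7 types at E7.5, Pcna was higher in 6, Rrm2 in 7 and Slbp in 6, while Plk1 was lower in 3, Bub1b in 6, Cenpe in 5, Cenpf in 7 and Mcm2 in 3. Mcm7 and Ung were lower in 3 each of these, and Gins2 was higher in 6, Birc5 in 7 and Ccna2 in 5.

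A further question was where in the embryo each programme ran high, in WT cells with types of more than 15 cells in at least 2 libraries. The types had been assigned by the authors from expression, in which cycle genes can take part, and that part was not tested. At E9.5 summed S levels ran from 1676 to 3756 CPM and summed G2/M levels from 2430.2 to 6231 CPM over 40 types. Hindbrain neural progenitors (3756 ± 203 CPM, SD, n = 4) and Dorsal spinal cord progenitors (3752 ± 102, n = 4) had the highest S sums, which do not differ beyond their spread, and Ventral hindbrain progenitors combined a high S sum (3336 ± 204) with a high G2/M sum (5706 ± 464). The lowest S sums were in Erythroid cells (1676 ± 149), Dorsal midbrain neurons (1689.8 ± 104) and Megakaryocyte progenitors (1729 ± 416, n = 2). CPM count haemoglobin UMIs in the total, and their part in the low sum of Erythroid cells was not tested. Without WT C and D, 32 types had more than 15 cells in both WT A and WT B. Hindbrain neural progenitors (3879 CPM) and Dorsal spinal cord progenitors (3839 CPM) again had the highest S sums and Dorsal midbrain neurons (1614 CPM) and Erythroid cells (1676 CPM) the lowest, and Ventral hindbrain progenitors stood at 3441 CPM of S and 5745 CPM of G2/M. Somitic mesoderm and Megakaryocyte progenitors are not among these 32 types.

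Somite derivatives split into types at opposite ends. Somitic mesoderm had the highest G2/M sum (6231 ± 804 CPM, n = 2, WT A and WT D) and a low S sum (1777 ± 293), and 90.0% of its cells were G2/M high. In Dermomyotome 81.1% ± 2.87 were G2/M high (n = 4). Posterior somitic tissues held 6.59% ± 7.29 G2/M high cells with an S sum of 3388.5 ± 103 CPM. Without WT C and D these were 1.0% and 3463 CPM with a G2/M sum of 2402 CPM, and Dermomyotome gave 81.8% and 5667 CPM. The share in Posterior somitic tissues was 2.0%, 0.0%, 8.16% and 16.2% in WT A to D, of 37 to 53 cells a library. The 4 WT libraries gave 2430.3, 2374, 2491 and 2772 CPM of G2/M in Posterior somitic tissues and 5439.9, 5894, 5582 and 5165 CPM in Dermomyotome, with no overlap. Null cells gave the same order, at 2572, 2557, 2408 and 2751 CPM and 4846, 5443, 5568 and 5519 CPM. At E8.5 Posterior somitic tissues held 13.5% G2/M high cells and Dermomyotome 84.2% (n = 2 each). Somitic mesoderm had enough cells in 1 WT library only at that stage, and NMPs (1.56%) and Anterior somitic tissues (80.5%, n = 2 each) had enough in 1 WT library only at E9.5.

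**Figure D4:**
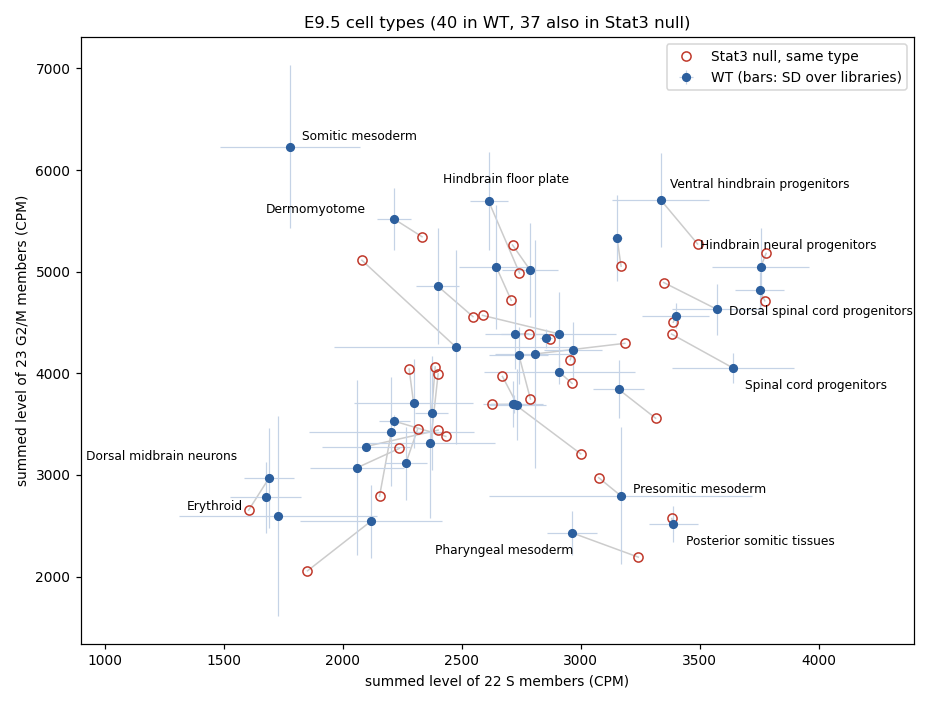
Cell types at E9.5 by summed level of the 22 S genes (horizontal axis, CPM) and of the 23 G2/M genes (vertical axis, CPM), as means over libraries with more than 15 cells (filled points, WT with SD bars, open points, the same type in Stat3 null cells, joined by a line). Somitic mesoderm and Dermomyotome lie at top left, Posterior somitic tissues at bottom right at 3388.5 and 2517 CPM, and neurons and Erythroid cells at bottom left.

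Dorsal midbrain neurons held 56.6% ± 5.40 G2/M low cells in WT and 60.3% ± 6.01 in null (n = 4), against 0.133% of WT Dorsal spinal cord progenitors. Without WT C and D the WT shares were 60.7% and 0.266%. Neurons carried a mean of 22179 UMIs a cell over WT libraries' medians and the progenitors 30986. Over the 37 shared types at E9.5 the Pearson r between null and WT means was 0.95 for S and 0.92 for G2/M, over 20 types at E8.5 0.94 and 0.79, and over 7 types at E7.5 0.98 and 0.44. At E7.5 the G2/M sums of the 7 WT types spanned 1.08-fold only. These r are descriptions over types that share libraries.

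**Figure D5:**
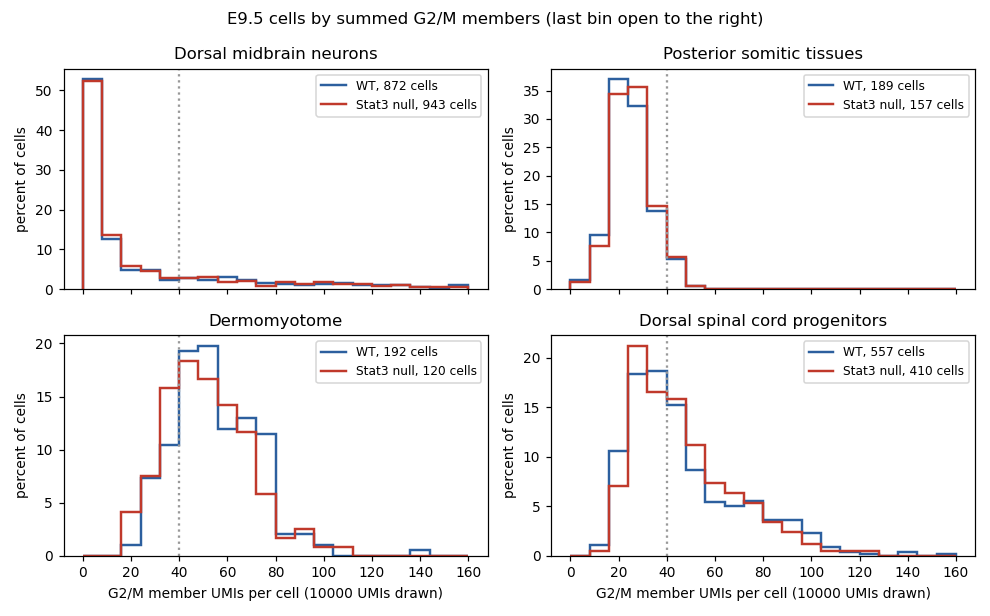
Percent of cells (vertical axis) by summed G2/M member UMIs per cell (horizontal axis, 10000 UMIs drawn per cell, bins of 8 UMIs, cells of 4 libraries pooled) for 4 E9.5 cell types in WT and Stat3 null cells (dotted line, 40 UMIs). Most Dorsal midbrain neurons fall in the lowest bin, Posterior somitic tissues lie almost all below 40 UMIs, and Dermomyotome mostly above, in both genotypes.

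Single genes differed in where their mean stood high, in an order whose neighbours were not tested. Over the 40 WT types at E9.5 Ung ran from 14.0 ± 15.4 CPM in Somitic mesoderm (n = 2, libraries at 3.04 and 24.9 CPM) to 103 ± 6.91 CPM in Posterior somitic tissues (n = 4), and Nusap1 ranged 7.01-fold, from 33.6 ± 6.58 CPM in Posterior somitic tissues to 236 ± 29.7 CPM in Hindbrain floor plate. Ccne1 was highest in Posterior somitic tissues (205 ± 15.6 CPM) and Ccne2 in Presomitic mesoderm (99.6 ± 40.2, n = 2). Mcm2 ranged 1.81-fold. E2f1 was highest, at 67.1 ± 9.81 CPM, in Dorsal midbrain neurons, where Mcm3, Mcm5, Mcm6, Tyms, Slbp and Birc5 were lowest. Mki67 was highest in Erythroid cells (555 ± 85.7 CPM), the type in which Cdk1 (65.5 ± 9.46), Cenpa (113 ± 3.23), Cenpf (140.2 ± 25.9) and Bub1 (33.7 ± 6.91) were lowest. The part of haemoglobin UMIs in these low values was not tested. Without WT C and D, over 32 types, Ung (108 CPM) and Ccne1 (211 CPM) were again highest in Posterior somitic tissues, E2f1 in Dorsal midbrain neurons (72.7 CPM) and Mki67 in Erythroid cells (621 CPM), the 6 genes named for the neurons were again lowest there, and Cdk1 (61.1 CPM), Cenpa (116 CPM) and Bub1 (32.9 CPM) were again lowest in Erythroid cells. Ung and Ccne1 were then lowest in Dorsal midbrain neurons (15.7 and 40.2 CPM), Nusap1 was highest in Ventral hindbrain progenitors (221 CPM), Ccne2 in Posterior somitic tissues (88.0 CPM), and Cenpf was lowest in Pharyngeal mesoderm (135 CPM). With WT A and WT D as its libraries, Somitic mesoderm held the highest levels of Ccnb1, Cdk1, Top2a, Ube2c, Cdc20, Aurka, Bub1, Tpx2, Cenpa, Hmmr and Kif23.

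Between stages, WT cells were compared in matched types, and stage cannot be told apart from the set of libraries sequenced for it. From E7.5 to E8.5 (Lateral plate mesoderm and Mesenchyme, 134 cells a library) 1937 of 10043 genes (19.3%) passed, and 7 members did, 3 higher (background 10.6%) and 4 lower (8.67%). Tyms rose from 108 and 96.7 to 163 and 145 CPM (log2 fold change 0.63, SE 0.11, adjusted p 0.00154), Chaf1b, a chromatin assembly factor gene, from 41.6 and 30.8 to 52.2 and 56.9 CPM (0.61, adjusted p 0.022), and Mcm7 from 197 and 191 to 222 and 258 CPM (0.33, adjusted p 0.0357). Ccne1 fell from 92.1 and 118 to 65.0 and 82.3 CPM (-0.49), Ccna2 from 149.5 and 147 to 112 and 112 (-0.38), Aurka, a spindle pole kinase gene, from 95.1 and 108 to 74.4 and 69.2 (-0.46), and Kif23, a motor of the midbody, from 98.6 and 96.9 to 70.8 and 73.8 (-0.40). The 2 stages did not overlap for any of the 7. They did not overlap either for members that were not called, among them Mcm3 (213 and 210 against 164 and 182 CPM), so that this does not set the 7 apart. Tyms was called under 10 of 10 other settings, and DESeq2 called Tyms alone. In the 4 fits without 1 library, which leave 1 library at a stage, Tyms was called in 4, Ccne1 in 2 (without E7.5 WT A or E8.5 WT B), Chaf1b and Aurka in 1 (without E7.5 WT A), Mcm7 in 1 (without E8.5 WT A) and Ccna2 and Kif23 in 0. By total UMIs Mcm7 was not called (adjusted p 0.0513), the other 6 were, and Slbp was called lower (-0.35, adjusted p 0.0469, against -0.31 and 0.0688 with TMM).

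Markers of other cell types moved in the same sums. The 8 erythroid markers gave 4.29 to 9.17 CPM at E7.5 and 1065 to 1223 CPM at E8.5, 7 of them apart and higher, with Slc4a1 and Hbb-y among those at 0 at E7.5. The 6 mesenchyme markers gave 883 to 1001 and 1195 to 1855 CPM, with 5 apart and higher and 1 lower, Hand2 at 0.96 and Hand1 at -1.18 on the log2 scale among the 3 called. The 5 endothelial markers gave 28.5 to 52.5 and 14.6 to 25.8 CPM, with Pecam1 apart and called (-2.42) and Emcn at 0 at both stages. The 5 neural crest markers gave 46.8 to 72.2 and 17.6 to 21.1 CPM, with Ets1 called (-1.96) and Foxd3 at 0 at both stages, and the 6 markers of visceral and extra-embryonic endoderm 21.2 to 41.4 and 19.6 to 20.7 CPM, with Ttr (-3.51) and Apoa1 (-1.78) called. The 6 extra-embryonic ectoderm markers gave 123 to 189 and 58.8 to 59.996 CPM, with 4 apart and lower, 1 higher, and Elf5 and Eomes at 0 at E8.5. The 6 neural markers gave 18.7 to 28.3 and 22.7 to 62.3 CPM, with 4 apart and higher and none called, and the 6 cardiomyocyte markers 162 to 230.3 and 152 to 264 CPM, with Tnni1 called (1.72). The 4 megakaryocyte markers gave 0.252 to 0.573 and 1.76 to 3.08 CPM. The part of these cells in the 7 calls was not tested.

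From E8.5 to E9.5 (18 types, 831 cells a library) the result depended on the scaling of libraries. With TMM scaling, which centres the genes, 4196 of 13265 genes (31.6%) passed and 14 members did, 3 higher (background 15.9%) and 11 lower (15.8%) at E9.5. With scaling by total UMIs the median of all genes stood at 0.22 in place of 0.02 on the log2 scale, a shift of 0.20, 44.4% of all genes passed, and 19 members did, 17 higher and 2 lower. The split of all genes by direction is not given for this scaling, so that the 17 and 2 are no result about the members as a set. Under both scalings 5 members were called in the same direction. Cdk1 fell, at 163 and 183 CPM at E8.5 and 141, 144, 164 and 149 CPM at E9.5 (log2 fold change -0.40, SE 0.07, adjusted p 0.0014, and -0.21 by total UMIs). Cdc20 fell as well, at 154 and 186 and 146, 139, 156 and 151 CPM (-0.39, adjusted p 0.00224, and -0.20). The CPM of both genes, which are per total UMIs, overlapped between stages.

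Rrm1 rose, at 112 and 104 and 162, 149, 158 and 138 CPM (0.29, adjusted p 0.00507, and 0.48 by total UMIs). E2f1 rose, at 24.6 and 25.9 and 40.8, 36.1, 33.6 and 32.9 CPM (0.31, adjusted p 0.0158, and 0.51). Mki67 rose, at 231 and 234 and 306, 290.2, 306 and 289 CPM (0.16, adjusted p 0.0212, and 0.36), with no overlap for the 3, but stood at -0.17 when types were not matched. Mcm2, not called with TMM, did not overlap in these CPM either (82.4 and 83.7 against 103, 103, 104 and 101). Ube2c (-0.31), Cdc6 (-0.27), Gins2 (-0.25) and Hmmr (-0.21) were lower and called with TMM and lower but not called by total UMIs (-0.11, -0.07, -0.05 and -0.02). Mcm3, Cdt1, Ccnb2, Cenpf and Birc5 were called lower with TMM only, at -0.18, -0.19, -0.19, -0.15 and -0.17, and stood at 0.00 to 0.05 by total UMIs. Without E9.5 WT C and D 15 members were called with TMM. Omitting 1 library at a time, Cdk1, Cdc20 and Ube2c were called in 6 of 6 fits, Rrm1 (not without E8.5 WT B), Cdc6 and Cdt1 (not without E8.5 WT A) in 5, and E2f1, Gins2 and Hmmr in 4 (not without either E8.5 library). Birc5 was called in 4 (not without E8.5 WT B or E9.5 WT A), Mki67 in 3 (without E9.5 WT B, C or D), and Mcm3, Ccnb2 and Cenpf in 2 (without E9.5 WT D, or without E9.5 WT B, A and C in that order).

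Here too markers of cell types moved, and those named were called under both scalings. Of the 6 neural markers 4 were called higher at E9.5, among them Fabp7 (2.10), at 329 to 359 CPM in all at E8.5 and 495 to 571 CPM at E9.5. Of the erythroid markers Gata1 (-1.20) and Klf1 (-0.89) were called lower, while the 8 with the haemoglobins gave 9100 to 14252 and 9900 to 13054 CPM. Of 6 cardiomyocyte markers 3 were called lower, among them Tnnt2 (-2.21), at 41.9 to 78.7 and 26.1 to 40.9 CPM, and of 5 endothelial markers 3, among them Kdr (-1.32), at 11.2 to 17.1 and 5.85 to 7.94 CPM. Of the extra-embryonic ectoderm markers tested Tfap2c and Sox21 were called higher and Cdx2 lower, and of the megakaryocyte markers Pf4 higher and Itga2b lower. Neural crest markers (3 lower with TMM, 1 by total UMIs) and mesenchyme markers (1 higher and 1 lower, then 3 higher) changed with the scaling, and no marker of visceral and extra-embryonic endoderm was called. Elf5 was at 0 at E8.5, and no other marker of the 9 lists was at 0 in all libraries of a stage. The part of these cells in the members' changes was not tested.

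The genes around the members in the pathway were counted from lists chosen by function. For genotype over 3 stages, where 1.52% of all genes rose and as many fell, 2 of 15 genes of origin licensing and firing rose in null, Orc4 (0.15, SE 0.04, adjusted p 0.0195) and Orc6 (0.17, SE 0.04, adjusted p 0.0438), both subunits of the origin recognition complex. Orc6 was not called by total UMIs (0.15, adjusted p 0.0504). Of 17 replicative polymerase and clamp loader genes 1 rose, Pold2, a subunit of polymerase delta (0.23, SE 0.04, adjusted p 0.00356). When E9.5 was tested alone by edgeR, Pold2 was called as well (0.26, adjusted p 0.0424). Genes of these lists were read under the 2 scalings only. Whether their calls hold in another draw of cells or without 1 library was not examined. None of 7 CDK inhibitors, 9 G1 cyclins and kinases, 12 genes of the RB and E2F family, 7 of the MuvB, B-Myb and FoxM1 set, 14 of the anaphase-promoting complex or 9 of the mitotic entry switch passed.

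From E7.5 to E8.5, against a background of 10.6% higher and 8.67% lower, 1 of 9 G1 cyclins and kinases rose, Ccnd2 (0.44, adjusted p 0.00612), and 3 fell, among them Ccnd1 (-0.60, adjusted p 0.00131). In the MuvB, B-Myb and FoxM1 set 1 of 6 fell, Mybl2, which encodes B-Myb (-1.34, adjusted p 0.00526). Of the polymerase and clamp loader genes 3 of 17 rose, among them Rfc3, a clamp loader subunit (0.63, adjusted p 0.00175), and 2 of 15 licensing and firing genes fell, Orc1 (-0.96, adjusted p 0.0101) and Orc2 (-0.38, adjusted p 0.0449). In the mitotic entry switch list 1 of 9 rose, Mad2l1 (0.40, adjusted p 0.0493), which is a gene of the spindle checkpoint rather than of mitotic entry. Mad2l1 was not called by total UMIs (adjusted p 0.0666). None of 4 CDK inhibitors, 11 RB and E2F genes or 14 genes of the anaphase-promoting complex passed.

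From E8.5 to E9.5, with TMM and against 15.9% higher and 15.8% lower over all genes, 2 of 5 CDK inhibitor genes rose, Cdkn1c (0.86, adjusted p 8.07e-05) and Cdkn1b (0.34, adjusted p 0.00432), and 6 of 12 RB and E2F genes rose, among them E2f6 (0.40, adjusted p 0.000574), with 1 lower, E2f5 (-0.40, adjusted p 0.00229). These 9 genes were called in the same direction by total UMIs, where 3 of 5 and 9 of 12 were higher. That scaling moved the median of all genes up by 0.20 on the log2 scale, and the background by direction is not given for it. Counts of the other lists turned with the scaling, and those by total UMIs, having no background here, are no result about the lists. Of the licensing and firing genes 1 was higher and 7 of 15 lower with TMM, and 5 higher and 1 lower by total UMIs, with Orc1 lower (-0.49 and -0.30) and Cdc7, a kinase that fires origins, higher (0.28 and 0.47) under both. Of the polymerase genes 4 of 17 were lower with TMM, and 5 higher and 1 lower by total UMIs, with Pold1 lower under both (-0.40 and -0.21). Of the anaphase-promoting complex 1 was higher and 4 of 14 lower with TMM, and 6 higher by total UMIs. In the mitotic entry switch list 2 of 9 were higher and 1, the checkpoint gene Mad2l1 (-0.29), lower with TMM. By total UMIs 5 were higher. Cdc25b, a phosphatase that activates Cdk1, was higher under both (0.60 and 0.80). Of the G1 cyclins and kinases 2 of 9 were higher and 1 lower with TMM, and 5 higher and 1 lower by total UMIs. In the MuvB, B-Myb and FoxM1 set 0 of 7 were called with TMM and 4 were higher by total UMIs.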

How the data were processed

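Cells of 16 libraries were profiled by 10x 3′ sequencing. The deposited matrix holds raw UMI counts per gene and cell, which the authors made with Cell Ranger on mm10 with tdTomato added, then filtered on UMIs, genes and the percent of mitochondrial counts. The deposited table of cells gives each barcode's UMI counts, that mitochondrial percent, the library, a doublet call and a cell type transferred by the authors from a reference atlas. Of 192657 barcodes 41832 were in the matrix, and 3395 cells called doublets were left out, as were 596 that carried tdTomato after the WT sort, so that tdTomato is 0 in WT by construction.

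Counts were summed per library over equal numbers of cells of each type (more than 15 cells per library) and tested with edgeR 4.0.16 (quasi-likelihood, TMM scaling, R 4.3.3) over all genes that passed its filter on low counts, with Benjamini-Hochberg adjustment at 0.05. Predicted, mitochondrial, ribosomal, haemoglobin and sex-linked marker genes were left out of the tests. The genotype fit had stage as a term. Intervals are 95% from the model's standard errors. CPM are relative to all UMIs. For shares, each cell was thinned to 10000 UMIs. DESeq2 1.42.0 and limma 3.58.1 (on log2 CPM) were alternatives, with numpy 2.4.6, scipy 1.17.1 and pandas 2.3.3 for the rest. The fits were tested on simulated data. Values by library are given for a set of genes by role and for members past the threshold. The members and lists were chosen with earlier results of these data known.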

Additional observations from a re-analysis of the deposited data

Results flagged for a closer look

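In 60 groups of 4 E9.5 libraries examined for a library far from the others, 3 were found, and chance alone flags about 1 in 20 groups. Cenpa stood at 282 CPM in E9.5 null B, where the other null libraries lay between 247 and 250.3 CPM. The share of G2/M high cells was 37.6% in E9.5 null D, where the others lay between 40.6% and 41.1%. Mki67 stood at 293 CPM in E9.5 WT C, one of the libraries with repeated barcode names, where the other WT libraries lay between 267 and 271 CPM.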

How the results depend on the processing

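No paired analysis was possible because the library names of the cells carry no embryo pool or replicate number, so that the planned block was not run. Of 302 counts and differences under other settings, 260 stayed within 1.5 times the reported count or within 1 SD between libraries of the reported difference. These 260 include counts of 0 in both fits and small differences whose sign changed, so that they are no measure of how stable the calls were. For genotype over 3 stages, where 3 members were called, DESeq2 called 6 and another draw without erythroid path cells 1 (Mki67, none of the 3). All cells unmatched, another draw of cells, leaving out null cells without a tdTomato UMI and leaving out both libraries with repeated names gave 0 each. In 9 settings beside the omissions of 1 library Cenpe was called in 4, Rrm2 in 2 and Cenpf in 2, and in the 16 omissions in 16, 4 and 2. Over all 25 the adjusted p ran from 0.000147 to 0.307, 0.0136 to 0.111 and 0.0128 to 0.527. At E9.5 alone DESeq2 called 1. From E7.5 to E8.5 DESeq2 called 1 member, all cells unmatched 22 and limma 11. From E8.5 to E9.5 limma called 9. Within cell types, no filter on low counts gave 5 calls at E8.5 and 18 at E9.5, where a log2 fold change over 1 gave 0, over 50 cells a library 0 and leaving out both libraries with repeated names 1. Over 50 cells left no type at E7.5. Shares of all genes called are not given for these other settings, so that the counts of members, between stages and within types, are no result about the members as a set. The share of S high cells, null minus WT, was 1.26 points at E7.5 with another minimum and 3.17 at E8.5 without thinning. The G2/M high share was 4.68 at E8.5 and 2.91 at E9.5 without thinning, and the G2/M sum at E8.5 was -130.1 CPM as a mean over types. Of the E8.5 to E9.5 calls, Mcm3 (0.0147), Cdt1 (0.00239), Ccnb2 (0.00147), Cenpf (0.0477) and Birc5 (0.0217) changed sign by total UMIs, Mki67 (-0.17) with all cells and Hmmr (0.0274) with limma. Scaling by total UMIs moved the median of all genes by 0.20 in this comparison, about as much as these 5 genes. The cause of the changes of Mki67 and Hmmr was not tested. The settings with total UMIs, without both libraries and with matched sums were chosen after seeing the data.

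Omitting 1 library at a time, calls ranged from 1 to 5 for genotype over 3 stages and 0 to 0 within each stage and for both interactions. They ranged from 0 to 7 within types at E7.5 (7 without null A), 0 to 22 at E8.5 (22 without null A) and 2 to 5 at E9.5. At E7.5 and E8.5 each omission leaves 1 library in an arm, which is assumed to vary like those of the other arm. Between stages they ranged from 1 to 5 for E7.5 to E8.5 (1 without E7.5 WT B) and 5 to 15 for E8.5 to E9.5 (5 without E8.5 WT A or E8.5 WT B). The G2/M high share, null minus WT, ranged from -5.89 to 3.47 points at E7.5, -3.82 to 3.24 at E8.5 and -1.61 to 0.0837 at E9.5. The S high share ranged from 2.39 to 5.43, -1.92 to 2.11 and 0.225 to 2.86. The G2/M sum ranged from -236 to 72.2 CPM, -127 to 135.0 and -124 to -6.95, and the S sum from 69.9 to 133.0, -49.9 to 78.8 and 21.5 to 80.1. The part of UMI counting error in the values of the rarest types was not tested.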
